A study of Homo sapiens with 12 samples.

Results

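The RNA levels of 10 genes that encode collagen hydroxylases and lysyl oxidases were examined in MDA-MB-231 cells, an established human line of triple-negative breast cancer. The genes were chosen by name, as the rows of the deposited count table whose symbol is P4HA1, P4HA2, P4HA3, PLOD1, PLOD2, PLOD3, LOX, LOXL1, LOXL2 or LOXL4, and all 10 were found among its 60664 genes. Wild-type (WT) cells kept untreated in normoxia, WT cells kept for 24 hours in hypoxia, and untreated cells with a CCAR2 knockout (KO) were each profiled by RNA-seq in 4 libraries, 12 in all. CCAR2 encodes the nuclear protein DBC1. The study reported by Western blotting that DBC1 protein fell in hypoxia, while the CCAR2 mRNA did not change. The knockout was made with a lentiviral Cas9 guide against CCAR2, and the sources used here do not say whether the cells came from 1 clone. The comparisons addressed how the transcripts of WT cells respond to low oxygen and how the loss of CCAR2 changes them when oxygen is not limiting.

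Collagen chains are modified both inside and outside the cell before they form a stable matrix. Inside the endoplasmic reticulum, prolyl 4-hydroxylases, each a catalytic alpha subunit (P4HA1, P4HA2 or P4HA3) bound to the shared subunit P4HB, hydroxylate prolines so that the triple helix is stable at body temperature, and the lysyl hydroxylases PLOD1, PLOD2 and PLOD3 hydroxylate lysines. Outside the cell, the copper-dependent lysyl oxidases LOX, LOXL1, LOXL2 and LOXL4 oxidise lysines and hydroxylysines, which then form the covalent cross-links that stiffen the matrix. The hydroxylases need molecular oxygen, iron, 2-oxoglutarate and ascorbate, and the oxidases need molecular oxygen. Several of these genes are known targets of the hypoxia-inducible factors (HIF), and P4HA1, PLOD2, LOX and LOXL2 have been linked to invasion of breast cancer cells.

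HIF binds a short DNA core, so the 250 bases upstream of each annotated start were searched for the words ACGTG and GCGTG on both strands. RefSeq promoters (GRCh38.p14) were matched for 8 of the 10 genes, with P4HA3 and LOXL2 not analysed here. One word or both were found for 4 genes (P4HA1, PLOD1, PLOD2 and LOX), and neither was found for the other 4 (P4HA2, PLOD3, LOXL1 and LOXL4). Among 35116 promoters of the same length, 18.5% held ACGTG, 32.2% held GCGTG and 43.2% held either, so a match is common and is only a description of the letters. The match nearest to the first-listed start of each of the 4 genes is printed below on the gene's own strand within 29 bases, 5′ to 3′, with the matched word in capitals. It began 25 bases before the start for PLOD1 (chr1:11934680-11934708, plus strand), 146 for PLOD2 (chr3:146161314-146161342, minus strand), 42 for LOX (chr5:122078285-122078313, minus strand) and 86 for P4HA1 (chr10:73096936-73096964, minus strand). The first-listed LOX start had 4 matches, at 185, 116, 98 and 42 bases before it. In the P4HA1 window the word ACGTG lies on the opposite strand and is therefore read as CACGT. By the GENCODE v29 gene models the windows of PLOD1, LOX and P4HA1 overlap an exon of a longer annotated transcript of the gene, and that of PLOD2 lies in an intron of one.
PLOD1: ggcgggcccagtGCGTGgcagcgggacct
PLOD2: caaacagtccagACGTGgggcccaggagg
LOX: gtaactttgcaaACGTGccagaaagttta
P4HA1: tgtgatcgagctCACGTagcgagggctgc

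The libraries were deep, with 68599412 to 213743693 estimated counts each, and the group medians were 182784770 in WT normoxia, 122641716 in WT hypoxia and 133249667 in CCAR2 KO. The targeted gene was in keeping with the labels, with CCAR2 at 146 ± 3.11 CPM (counts scaled to the size of the library, mean ± SD, n = 4) in WT normoxia, 149 ± 4.95 in WT hypoxia and 57.8 ± 2.81 in CCAR2 KO, a log2 difference of -1.34 between KO and WT (SE 0.042, adjusted p = 2.1e-09, edgeR). Of the genes taken to mark the line, VIM, CD44, AXL and CAV1 were abundant in every library while SPARC was at 1.05 to 2.01 CPM. ESR1, PGR and CDH1 stayed at or below 0.47 CPM, but ERBB2 (88.8 to 107 CPM) and EPCAM (11.7 to 17.9 CPM) were expressed. The 8 fibroblast markers, which matter here because fibroblasts are rich in these enzymes, summed to 1.16 to 1.98 CPM in WT normoxia, 1.48 to 2.32 in WT hypoxia and 1.68 to 2.36 in CCAR2 KO, and DCN, LUM, PDGFRA, COL1A2 and FAP were each at or below 0.198 CPM. PDGFRB was at 0.632 to 1.13, 0.661 to 1.24 and 1.05 to 1.45 CPM in the same order. COL3A1 reached 0.661 CPM in WT hypoxia and THY1 0.484 CPM in WT normoxia. The 3 endothelial markers, of which PECAM1 made up most, summed to 2.35 to 3.46, 3.43 to 5.29 and 5.21 to 5.91 CPM in the same order, and their part in the results was not tested. In RNA from a whole culture, fewer cells of a type and less RNA per cell cannot be told apart.

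In WT cells, 24 hours of hypoxia raised 7 of the 10 genes and lowered none. The 7 were P4HA1, P4HA2, PLOD1, PLOD2, LOX, LOXL2 and LOXL4, and P4HA1 and LOXL4 rose most, by 2.86-fold and 2.71-fold. PLOD3, LOXL1 and the barely expressed P4HA3 did not pass. To be called, a gene had to have an adjusted p (edgeR quasi-likelihood test, Benjamini-Hochberg over all genes tested) under 0.05 together with a log2 difference of 0.5 or more in either direction, limits taken from the study's methods. By that rule 5.83% of the 21776 genes tested were called higher in hypoxia and 1.43% lower. DESeq2 and limma-voom also called 7 of the 10 higher and none lower, and at an unadjusted p under 0.05 alone 9 were higher and none lower. The share over all genes at that unadjusted limit was not computed, here or for the later counts at it. The 10 genes had a median log2 difference of 0.74, against 0.01 over all genes tested, and each of the 10 estimates was above 0. LOXL3, the lysyl oxidase outside the 10, had an estimate of -0.18 (SE 0.123, adjusted p = 0.34, edgeR). The 10 were chosen with earlier results of these data known.

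In CCAR2 KO cells, 2 of the 10 genes were called higher than in WT normoxia, P4HA2 by 1.51-fold and PLOD1 by 1.45-fold, and none was called lower. Among all 21410 genes tested, 6.73% were called higher in the KO and 2.94% lower. The differences of the other 8 genes lay between -0.36 (LOX) and 0.34 (LOXL4) on the log2 scale. At an unadjusted p under 0.05 alone, 6 of the 10 were higher and LOX and LOXL1 were lower, and DESeq2 and limma-voom called the same numbers as edgeR, 2 higher and none lower. The median log2 difference of the 10 genes was 0.19, against 0.01 over all genes.

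Set directly against WT hypoxia, CCAR2 KO cells were called lower for 5 genes, P4HA1, LOXL4, LOX, PLOD2 and LOXL1, and higher for none, by edgeR, DESeq2 and limma-voom alike, with 9 lower and none higher at an unadjusted p under 0.05. Over the 21158 genes tested there, 7.08% were called higher in the KO and 7.88% lower. Both comparisons with WT normoxia use the same 4 normoxic libraries, so the values of each gene are given side by side and the direct comparison carries the test of KO against hypoxia.

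P4HA1 (chr10:73007217-73096974, minus strand; all positions are of GENCODE v29 on GRCh38) is the main catalytic alpha subunit of collagen prolyl 4-hydroxylase in most cells. Its 4 libraries of WT normoxia were at 41.9, 43.4, 44.7 and 42.9 CPM, those of WT hypoxia at 118, 143, 112 and 123 CPM, and those of CCAR2 KO at 50.9, 49.1, 47.1 and 48.2 CPM. The 3 groups did not overlap, with the hypoxic libraries far above the other 2 groups. The log2 difference was 1.51 in hypoxia (SE 0.073, adjusted p = 5e-07, edgeR), a 2.86-fold rise. In the KO it was 0.18 (SE 0.045, adjusted p = 0.0098), 1.13-fold and under the fold limit. KO cells thus held P4HA1 at 1.35 log2 units below WT hypoxia (log2 difference -1.35, SE 0.071, adjusted p = 1.3e-07).

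P4HA2 (chr5:132191838-132295315, minus strand), the second alpha subunit, was raised in both conditions. It was at 24.3, 30.5, 26.5 and 29.9 CPM in WT normoxia, at 49.0, 49.4, 43.7 and 49.7 CPM in WT hypoxia, and at 41.8, 42.8, 43.5 and 39.9 CPM in CCAR2 KO. Every hypoxic and every KO library was above every normoxic one, and the lowest hypoxic library was just above the highest KO library. The log2 difference from WT normoxia was 0.78 in hypoxia (SE 0.080, adjusted p = 0.00011) and 0.59 in the KO (SE 0.072, adjusted p = 6.2e-05). Directly compared, KO was 0.19 log2 units from hypoxia (log2 difference -0.19, SE 0.056, adjusted p = 0.018), below the fold limit. P4HA2 was therefore called in both comparisons with normoxia and not in the direct one. It shares 6.45% of its exonic bases with P4HA2-AS1 on the opposite strand, which had 0 to 4 counts per library.

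P4HA3 (chr11:74235801-74311657, minus strand), the third alpha subunit, was close to absent. It had 24 to 86 counts per library, or 0.28 to 0.39 CPM in WT normoxia, 0.36 to 0.44 CPM in WT hypoxia and 0.21 to 0.47 CPM in CCAR2 KO, and the 3 groups overlapped. Its log2 differences of 0.28 in hypoxia (SE 0.232, adjusted p = 0.43) and 0.10 in the KO (SE 0.297, adjusted p = 0.84) were within the spread of the libraries. A change was not detectable at this depth. P4HA3 also shares 5.09% of its exonic bases with genes on the opposite strand, among them PPME1, which had far more counts than P4HA3 in every library.

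PLOD1 (chr1:11934205-11975538, plus strand), the lysyl hydroxylase deficient in the kyphoscoliotic form of Ehlers-Danlos syndrome, was also raised in both conditions. It was measured at 65.8, 68.6, 69.8 and 74.3 CPM in WT normoxia, at 135, 129, 132 and 139 CPM in WT hypoxia and at 97.6, 97.7, 107 and 101 CPM in CCAR2 KO. The KO libraries thus formed a separate band between the other groups, with no overlap on either side. PLOD1 rose by 0.93 on the log2 scale in hypoxia (SE 0.053, adjusted p = 2e-06), 1.91-fold, and by 0.53 in the KO (SE 0.047, adjusted p = 4.6e-06). The log2 difference of KO from hypoxia was -0.41 (SE 0.047, adjusted p = 5.7e-05), past the p limit and not past the fold limit.

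PLOD2 (chr3:146069440-146163653, minus strand), which hydroxylates the lysines of collagen telopeptides and so sets the type of cross-link, was called higher in hypoxia and was not called in the KO. Its levels were 68.2, 64.6, 61.4 and 61.8 CPM in WT normoxia, 113, 110, 110 and 110 CPM in WT hypoxia, and 79.6, 69.7, 71.4 and 75.6 CPM in CCAR2 KO. The hypoxic libraries lay in a narrow band far above the rest, and the lowest KO library was only just above the highest normoxic one. The log2 difference was 0.78 in hypoxia (SE 0.049, adjusted p = 3.5e-06) and 0.21 in the KO (SE 0.051, adjusted p = 0.0074), under the fold limit. KO cells had less PLOD2 than hypoxic cells by the direct test, with a log2 difference of -0.58 (SE 0.050, adjusted p = 5.8e-06).

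PLOD3 (chr7:101205977-101218420, minus strand), which also carries the glycosyltransferase activities that add sugars to hydroxylysine, differed little between groups. It ranged from 123 to 139 CPM in WT normoxia, from 142 to 152 CPM in WT hypoxia and from 130 to 146 CPM in CCAR2 KO. The KO libraries overlapped both WT groups, whereas the lowest hypoxic library was above the highest normoxic one. The log2 differences were 0.15 in hypoxia (SE 0.052, adjusted p = 0.065) and 0.05 in the KO (SE 0.049, adjusted p = 0.53), and neither passed. PLOD3 shares 7.56% of its exonic bases with ZNHIT1 on the opposite strand.

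LOX (chr5:122063195-122078360, minus strand), the founding lysyl oxidase, was raised by hypoxia and had its lowest levels in the KO. The 4 libraries were at 256, 234, 235 and 239 CPM in WT normoxia, at 413, 365, 390 and 370 CPM in WT hypoxia and at 200.2, 186, 182 and 184 CPM in CCAR2 KO. The 3 groups did not overlap, with KO lowest and hypoxia highest. In hypoxia LOX rose by 0.67 on the log2 scale (SE 0.056, adjusted p = 3.6e-05), 1.59-fold. The KO difference was -0.36 (SE 0.044, adjusted p = 7e-05), past the p limit but short of the fold limit, so LOX was not called lower. Against hypoxia the KO had a log2 difference of -1.03 (SE 0.055, adjusted p = 1.4e-07), a 2.05-fold lower level.

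LOXL1 (chr15:73925989-73952137, plus strand), the oxidase needed for elastic fibres, had the same order of groups at a much lower level. It was at 11.6, 12.5, 12.5 and 14.96 CPM in WT normoxia, at 15.6, 14.1, 15.6 and 15.6 CPM in WT hypoxia and at 10.9, 10.1, 11.1 and 10.7 CPM in CCAR2 KO. One normoxic library lay within the hypoxic range, and the KO libraries were below all others. Neither the hypoxic log2 difference of 0.23 (SE 0.088, adjusted p = 0.079) nor the KO difference of -0.27 (SE 0.083, adjusted p = 0.029) met both limits. The direct log2 difference of -0.51 (SE 0.071, adjusted p = 0.0002) did, but it became -0.497 without WT hypoxia replicate 3 and -0.485 without CCAR2 KO replicate 2, and the call was lost each time. LOXL1 shares 335 exonic bases, 9.21% of its exons, with the antisense gene LOXL1-AS1, which was more abundant at 24.7 ± 1.16, 23.8 ± 0.53 and 18.8 ± 1.54 CPM in the 3 groups in the same order. The antisense gene's own log2 difference in the KO was -0.39 (SE 0.067, adjusted p = 0.00081). The counting is not stated to use strand, so reads over the shared bases cannot be assigned to one or the other.

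LOXL2 (chromosome 8, minus strand), an oxidase that cross-links type IV collagen, was among the most abundant of the 10. Its 4 libraries were at 217, 213, 214.2 and 232 CPM in WT normoxia, at 361, 315, 374 and 379 CPM in WT hypoxia and at 259.6, 267, 287 and 279 CPM in CCAR2 KO. The groups were fully separated, with KO in the middle. LOXL2 rose in hypoxia by 0.70 on the log2 scale (SE 0.064, adjusted p = 5.4e-05), 1.62-fold. In the KO the log2 difference was 0.32 (SE 0.045, adjusted p = 0.00019) and relative to hypoxia -0.39 (SE 0.064, adjusted p = 0.00062), both short of the fold limit. LOX and LOXL2 thus both rose in hypoxia, while in the KO their estimates had opposite signs.

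LOXL4 (chr10:98247690-98268250, minus strand), a less studied member of the family, was scarce in normoxia and rose most among the oxidases. It was at 4.54, 4.62, 4.39 and 5.14 CPM in WT normoxia, at 13.5, 12.1, 12.6 and 12.8 CPM in WT hypoxia and at 5.83, 5.97, 6.07 and 5.84 CPM in CCAR2 KO. All hypoxic libraries were far above any other library, and the KO libraries lay just above the normoxic ones without overlap. The log2 difference was 1.44 in hypoxia (SE 0.084, adjusted p = 2.2e-06), 2.71-fold, and 0.34 in the KO (SE 0.086, adjusted p = 0.009), under the fold limit. The direct log2 difference was -1.10 (SE 0.077, adjusted p = 1.1e-06).

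**Figure D1:**
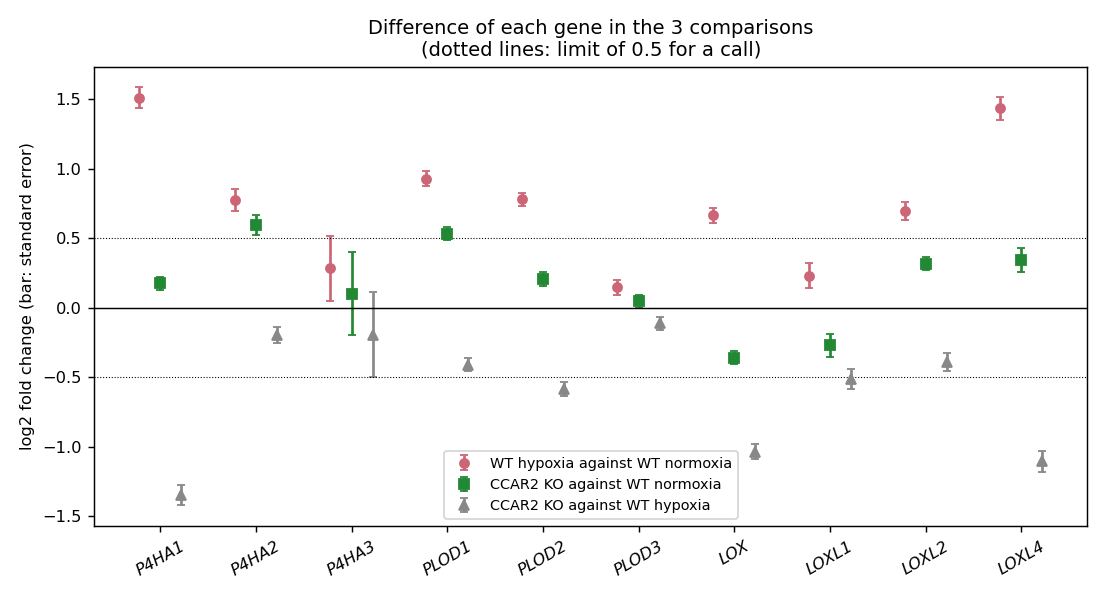
Log2 fold change of each gene (y axis) in WT hypoxia against WT normoxia (circles), CCAR2 KO against WT normoxia (squares) and CCAR2 KO against WT hypoxia (triangles). Bars give the standard error derived from the F statistic of the edgeR test, and dotted lines mark the limit of 0.5 for a call. P4HA1 (1.51) and LOXL4 (1.44) stand highest in hypoxia, P4HA2 (0.59) and PLOD1 (0.53) are the 2 KO values above the upper dotted line, and LOX (-0.36) and LOXL1 (-0.27) are the 2 KO values below 0.

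To compare levels between genes, CPM were divided by the length of each gene's merged exons (GENCODE v29) and are given as CPM per kb. In WT normoxia the order was LOX at 43.4 CPM per kb, LOXL2 at 38.4, PLOD3 at 23.3, P4HA1 at 14.0, PLOD1 at 13.1, PLOD2 at 8.37, LOXL1 at 3.54, P4HA2 at 3.27, LOXL4 at 1.28 and P4HA3 at 0.0815. The libraries of P4HA1 and PLOD1 overlapped in this order, as did those of LOXL1 and P4HA2. In WT hypoxia P4HA1, at 40.1 CPM per kb, came next behind LOX (69.3) and LOXL2 (62.6), whose ranges overlapped, and ahead of PLOD3 (25.9) and PLOD1 (25.1), whose ranges also overlapped. In CCAR2 KO LOXL2 was highest at 47.9 CPM per kb and LOX was next at 33.9, with no overlap, followed by PLOD3 at 24.1, PLOD1 at 19.0 and P4HA1 at 15.8. These orders depend on the length used. With the longest transcript in place of merged exons, LOXL2 was highest in each group, at 61.7, 100.7 and 77.0 CPM per kb in WT normoxia, WT hypoxia and CCAR2 KO, and LOX was at 47.2, 75.3 and 36.9. PLOD3 was then at 45.2, 50.4 and 46.8 CPM per kb, overlapping LOX in WT normoxia and lying above it without overlap in CCAR2 KO, where LOX overlapped PLOD1 (34.3). By the same length P4HA1 was at 15.2 CPM per kb in WT normoxia, behind PLOD1 (23.7) and PLOD2 (16.7). In WT hypoxia P4HA1 was at 43.6, with a mean below those of PLOD3 and PLOD1 (45.4). Its range there, 39.52 to 50.24, overlapped that of PLOD3 (48.55 to 51.98) and that of PLOD1.

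The mix of transcripts within the P4HA and PLOD families is given by library shares. P4HA1 made up 80.7 ± 1.52% (SD, n = 4) of the summed P4HA level per kb in WT normoxia, 87.4 ± 0.86% in WT hypoxia and 75.8 ± 0.89% in CCAR2 KO, and the 4 libraries of each group did not overlap those of another. PLOD3 was 52.0 ± 1.302% of the PLOD sum in WT normoxia, 39.6 ± 0.82% in WT hypoxia and 45.6 ± 0.75% in CCAR2 KO, although its own level did not pass the test. PLOD1 made up 29.2 ± 0.80%, 38.3 ± 0.58% and 36.0 ± 0.84% in the same order. The P4HA shares depend on the length used, since with the longest transcript P4HA1 made up 64.4%, 75.0% and 57.5% and P4HA2 35.1%, 24.7% and 42.0% in the same order, in place of 18.9%, 12.3% and 23.7% for P4HA2 by merged exons. The P4HA1 shares of the 3 groups did not overlap by either length. These shares are descriptions with no test, and a share moves whenever another member of the family does.

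In the lysyl oxidase family, LOX was 50.1 ± 1.55% of the family's summed level per kb in WT normoxia and 49.7 ± 1.91% in WT hypoxia, with overlapping libraries, but 39.3 ± 1.93% in CCAR2 KO. LOXL2 was at 44.3 ± 1.07%, 44.8 ± 1.94% and 55.4 ± 1.93%. With the longest transcript LOXL2 was the larger part in each group, at 53.7%, 54.4% and 64.5%, and LOX was at 41.1%, 40.8% and 30.9%. The summed level of the 4 oxidases was 86.6 ± 2.59 CPM per kb in WT normoxia and 86.4 ± 1.295 in CCAR2 KO, against 139.6 ± 7.90 in WT hypoxia. With the longest transcript as length, the sums were 115 ± 3.52, 119 ± 2.36 and 185 ± 11.02 CPM per kb. The summed P4HA level by merged exons was 17.3 ± 0.57, 45.9 ± 4.49 and 20.8 ± 0.52 CPM per kb in WT normoxia, WT hypoxia and CCAR2 KO, and the PLOD sum was 44.7 ± 1.34, 65.5 ± 1.51 and 52.7 ± 1.95.

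**Figure D2:**
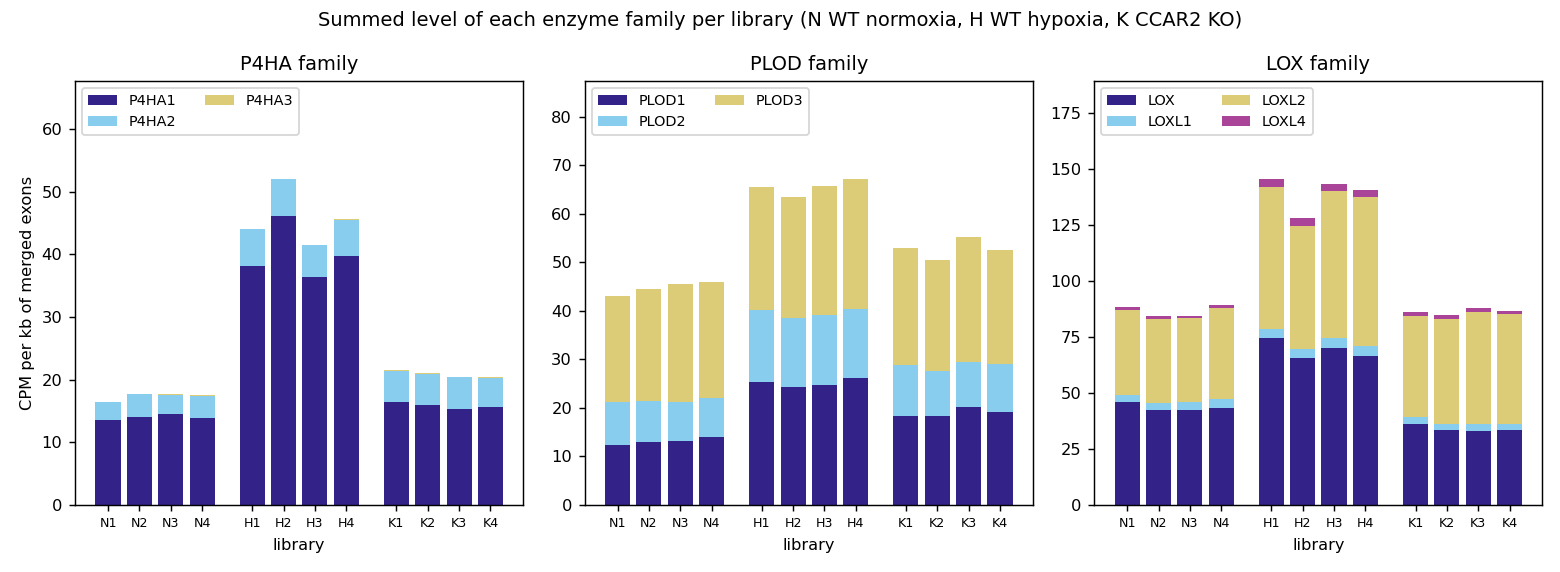
Summed level of the P4HA, PLOD and LOX families (LOX without LOXL3) in each library (y axis, CPM per kb of merged exons, from 0), stacked by gene, for WT normoxia (N1 to N4), WT hypoxia (H1 to H4) and CCAR2 KO (K1 to K4). The hypoxic sums are highest in all 3 panels, and in the LOX panel the KO bars reach the normoxic height (86.4 against 86.6 CPM per kb on average) with a smaller LOX and a larger LOXL2 part.

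For each family the gene most studied in hypoxia (P4HA1, PLOD2 and LOX) was compared over all 12 libraries with the others of 14695 genes, itself included. Pearson's r of log2 CPM was used to name the 3 genes with the most similar levels. For P4HA1 they were NREP (r = 0.996), PAM (r = 0.992) and ANGPTL4 (r = 0.992). For PLOD2 they were AK4 (r = 0.989), ERRFI1 (r = 0.987) and INTS3 (r = 0.985), and for LOX they were NABP1 (r = 0.989), GFRA1 (r = 0.989) and GBE1 (r = 0.984). The 12 libraries fall into 3 groups, so these values mostly describe likeness of group means, and no p is given.

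Enzymes and helpers that work on the same chains in the endoplasmic reticulum were set beside the 10 genes. Over all genes tested, 5.83% were called higher and 1.43% lower in hypoxia, and 6.73% and 2.94% in the KO. Of 15 genes of collagen folding, 3-hydroxylation, glycosylation and export, none was called in hypoxia by edgeR, DESeq2 or limma-voom, with 5 higher and 4 lower at an unadjusted p under 0.05 and a median log2 difference of -0.04. P4HB, the shared subunit of the prolyl 4-hydroxylases, was at 547.5 ± 13.1 CPM in WT normoxia, 631 ± 14.9 in WT hypoxia and 622 ± 9.58 in CCAR2 KO, with log2 differences of 0.20 (SE 0.046, adjusted p = 0.011) and 0.18 (SE 0.038, adjusted p = 0.0029), both under the fold limit. SERPINH1, the collagen chaperone HSP47, had a log2 difference of -0.08 in hypoxia (SE 0.049, adjusted p = 0.3). In the KO, 2 of the 15 were called higher and none lower (also by DESeq2 and limma-voom, with 11 higher and 2 lower at an unadjusted p under 0.05), with a median of 0.14. The shares over all genes given above are for calls and not for the unadjusted limit. COLGALT2, a collagen galactosyltransferase, rose by 1.37 on the log2 scale (SE 0.070, adjusted p = 5.2e-08), from 6.62 ± 0.46 to 17.1 ± 0.50 CPM. MIA2, which takes part in loading large cargo at exit sites of the endoplasmic reticulum, rose by 0.53 (SE 0.068, adjusted p = 9.2e-05), a call lost without WT normoxia replicate 3 (0.485), WT normoxia replicate 4 (0.498) or CCAR2 KO replicate 1 (0.491).

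Among 15 genes for propeptide processing and for partners of the lysyl oxidases, hypoxia raised EFEMP2, TNXB and PCOLCE, and the KO had higher FN1, BMP1 and ADAMTS3. In hypoxia these were 3 of 12 tested, with none lower (also by DESeq2 and limma-voom, with 6 higher and none lower at an unadjusted p under 0.05) and a median log2 difference of 0.34. The shares called over all genes tested were 5.83% higher and 1.43% lower in hypoxia, and 6.73% and 2.94% in the KO. EFEMP2 (fibulin-4), which brings LOX to elastin, rose from 1.79 ± 0.22 to 5.99 ± 0.66 CPM, a log2 difference of 1.74 (SE 0.128, adjusted p = 1.1e-05). TNXB (tenascin-X) rose by 1.15 (SE 0.159, adjusted p = 0.00063), and PCOLCE, an enhancer of procollagen C-proteinase, rose by 0.74 (SE 0.148, adjusted p = 0.0044). In the KO they were 3 of 11 tested, with none lower (3 and none by DESeq2, 4 and none by limma-voom, 4 and 3 at an unadjusted p under 0.05) and a median of 0.01. FN1 (fibronectin), a matrix scaffold that binds LOX, rose from 413 ± 47.0 to 1215 ± 54.1 CPM, a log2 difference of 1.56 (SE 0.074, adjusted p = 3.1e-08). BMP1, the protease that cleaves procollagen C-propeptides and activates pro-LOX, rose by 1.02 (SE 0.051, adjusted p = 4.6e-08), and ADAMTS3, a procollagen N-propeptidase, by 0.82 (SE 0.127, adjusted p = 0.0004). In hypoxia FN1, ADAMTS3 and BMP1 had log2 differences of -0.04, -0.12 and 0.28, and in the KO EFEMP2, PCOLCE and TNXB had differences of 0.11, 0.01 and -0.50, none of which was called. LOXL3, the remaining oxidase of the family, was at 4.53 ± 0.27, 4.02 ± 0.65 and 3.36 ± 0.27 CPM and was not called in either comparison. Its log2 difference was -0.18 in hypoxia (SE 0.123, adjusted p = 0.34, edgeR). In the KO it was -0.43 (SE 0.099, adjusted p = 0.0056), past the p limit but short of the fold limit.

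The substrates were followed through 18 collagen chains and elastin. Of all genes tested, 5.83% were called higher and 1.43% lower in hypoxia, and 6.73% and 2.94% in the KO. In hypoxia 6 of 17 tested were called higher and none lower (also by DESeq2 and limma-voom, with 10 higher and none lower at an unadjusted p under 0.05), with a median log2 difference of 0.42. COL5A1 had a log2 difference of 1.05 (SE 0.103, adjusted p = 8.5e-05), COL16A1 of 0.79 (SE 0.205, adjusted p = 0.016) and COL7A1 of 0.65 (SE 0.091, adjusted p = 0.00067). COL4A5 had the lowest of the 6, 0.54 (SE 0.157, adjusted p = 0.028), and its call was lost on leaving out any 1 of the WT normoxia libraries or WT hypoxia replicate 1 or 3. The COL16A1 call was lost without WT normoxia replicate 1 or WT hypoxia replicate 3 (adjusted p = 0.052 for each). In the KO 9 of 17 were called higher and 3 lower, with a median of 0.56. DESeq2 and limma-voom gave the same numbers, and at an unadjusted p under 0.05 there were 11 higher and 3 lower. COL6A1 rose from 49.4 ± 5.71 to 173 ± 11.97 CPM, 3.51-fold. COL6A3 and COL18A1 rose by 1.57 (SE 0.149, adjusted p = 7.8e-06) and 1.14 (SE 0.062, adjusted p = 8.7e-08) on the log2 scale. COL8A1, a network-forming short-chain collagen, had the lowest value, -1.01 (SE 0.053, adjusted p = 5.9e-08). COL12A1 (-0.77) and COL5A2 (-0.62) were the other 2 that fell. COL1A2 and ELN were too low to be tested in either comparison.

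Oxygen-dependent hydroxylases that act on proteins other than collagen, with genes for ascorbate and iron uptake, made a list of 9, all tested. In hypoxia 2 were called higher and none lower (also by DESeq2 and limma-voom, with 3 higher and 2 lower at an unadjusted p under 0.05), with a median log2 difference of 0.04. EGLN3, a HIF prolyl hydroxylase, rose from 2.96 ± 0.37 to 11.2 ± 0.81 CPM, a log2 difference of 1.92 (SE 0.112, adjusted p = 2.2e-06). EGLN1, the main HIF prolyl hydroxylase in normoxia, rose by 0.52 (SE 0.046, adjusted p = 4.6e-05), a call lost at 0.499 when no filter on low counts was applied. In the KO 1 gene was called higher and none lower (also by DESeq2 and limma-voom, with 5 higher and 1 lower at an unadjusted p under 0.05). It was EGLN3, at 4.50 ± 0.47 CPM and a log2 difference of 0.61 (SE 0.121, adjusted p = 0.0023), with a list median of 0.17. Among all genes tested, 5.83% were called higher and 1.43% lower in hypoxia, and 6.73% and 2.94% in the KO. The ascorbate transporter SLC23A2 and the transferrin receptor TFRC had hypoxic log2 differences of -0.15 (SE 0.100, adjusted p = 0.33) and -0.04 (SE 0.057, adjusted p = 0.71).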

How the data were processed

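RNA-seq of MDA-MB-231 cells gave 4 libraries per group. The values are estimated counts per gene, deposited by the authors as whole numbers. The methods name HISAT2 alignment and StringTie quantification, the labels name HISAT2, SAMtools and featureCounts, and the genome build and annotation are not given in the sources used here. Labels and methods also differ on the library kit and on the number of replicates. The methods call the replicates biological but do not say how the 4 libraries of a group relate to separate cultures, so p-values measure the spread between these libraries.

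Each comparison was fitted on its 2 groups with edgeR 4.0.16 (R 4.3.3; filterByExpr, TMM scaling, quasi-likelihood test, Benjamini-Hochberg adjustment over all genes tested), on the counts as deposited. Calls needed an adjusted p under 0.05 and a log2 fold change at or beyond 0.5 in either direction. DESeq2 1.42.0 and limma-voom (limma 3.58.1) were alternatives. The SE printed with edgeR results is the absolute log2 fold change divided by the square root of the F statistic. CPM used 1 TMM scaling over the 12 libraries. The edgeR fit was tried on simulated counts (21142 genes tested, 1 dispersion for all), with 200 genes changed by 1 log2 unit. It called 180 of these and made 5 false calls. Smaller changes and gene-to-gene differences in dispersion were not simulated. The text names all 10 genes, CCAR2, the 3 most similar genes for P4HA1, PLOD2 and LOX (among genes tested in both comparisons with normoxia and averaging at least 100 counts), and, of each list, every called gene if 4 or fewer and otherwise the 3 highest and the lowest called. SERPINH1, P4HB, LOXL3, LOXL1-AS1, SLC23A2, TFRC and some lower-ranked collagens were named beside this rule, after their values were seen. The genes and lists were chosen with earlier results of these data known.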

Additional observations from a re-analysis of the deposited data

Results flagged for a closer look

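A single library stood apart from the other 3 of its group, by Dixon's test of the gap over the range at its 95% critical value, in 3 of the 30 combinations of gene and group. Chance flags about 1 in 20, or 1.5 of 30. All 3 were in WT hypoxia and each was a different library. P4HA2 in replicate 3 was at 43.7 CPM against 49.0 to 49.7 in the others (0.886). PLOD2 in replicate 1 was at 112.9 CPM against 109.6 to 109.8 (0.917), a gap that is small beside the distance to the other groups. LOXL1 in replicate 2 was at 14.1 CPM against 15.6 in the other 3 libraries (0.982).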

How the results depend on the processing

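The calls of the 10 genes in hypoxia and in the KO against WT normoxia were the same in number under DESeq2, limma-voom, RLE scaling, no filter on low counts, 1 fit of all 12 libraries and with each library left out, and so were those of KO against hypoxia except that LOXL1 was lost without WT hypoxia replicate 3 or CCAR2 KO replicate 2. Other limits changed the counts. With a log2 fold change of at least 1, 2 genes were called higher in hypoxia, 0 higher in the KO and 3 lower in the KO against hypoxia. With an adjusted p alone, 6 genes were called higher and 2 lower in the KO, and 8 lower against hypoxia. The shares over all genes at these other limits were not computed, so these counts have no background to be read against. The estimate for P4HA3 changed sign, from -0.081 (without CCAR2 KO replicate 4) to 0.29 over the libraries left out in the KO comparison, and from -0.37 to 0.00 (0.001, without CCAR2 KO replicate 3) against hypoxia. Over all genes, deviations of same-numbered libraries were close to uncorrelated (correlations -0.025 to 0.065). The labels do not say whether the numbers pair libraries, and these correlations cannot settle it. A fit with the replicate block called 7 of the 10 genes higher in hypoxia, 2 higher in the KO and 5 lower against hypoxia. The counts for the pathway lists were recomputed under alternatives added after seeing the data. Under the block TLL2 was also called higher in hypoxia (0.71, adjusted p = 0.041) and TNXB lower in the KO (-0.52, adjusted p = 0.0425), both by edgeR. FMOD was called higher in the KO by limma-voom (0.90, adjusted p = 0.0487), and FKBP14 by edgeR in 4 of the leave-outs (0.502 to 0.52). With single libraries left out, the substrates called higher in hypoxia numbered 4 to 7, with COL4A2 gained without WT normoxia replicate 4 (0.512) or WT hypoxia replicate 2 (0.553) and COL17A1 without WT normoxia replicate 4 (0.507). TLL2 (hypoxia, 2 leave-outs), TNXB (KO, 1) and FMOD (KO, 1) were also gained this way. The low counts of P4HA3 limit its estimates.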

Other observations

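The pathway lists were also compared between CCAR2 KO and WT hypoxia. Over all 21158 genes tested there, 7.08% were called higher in the KO and 7.88% lower. Of the 15 folding and modification genes, 3 were higher in the KO (COLGALT2, MIA2 and FKBP14) and 2 lower (P3H3 and FKBP10), with a median log2 difference of 0.20. Of 12 tested processing genes and partners, 3 were higher (FN1, ADAMTS3 and BMP1) and 5 lower (TNXB, EFEMP2, TLL2, PCOLCE and PCOLCE2), with a median of -0.40. DESeq2 gave the same numbers and limma-voom called 4 lower, and the libraries of TLL2 overlapped between the groups. Of 18 tested substrates, 4 were higher (COL6A1, COL6A3, COL18A1 and COL17A1) and 4 lower (COL8A1, COL16A1, COL12A1 and COL5A2), with a median of -0.02. Of the 9 genes of other hydroxylases and supply, 1 was higher (IREB2) and 2 were lower (EGLN3 and EGLN1), with a median of -0.15. For the 10 enzymes the median was -0.46.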
